A study of Mus musculus with 12 samples.

Results

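The DNA replication machinery was taken as 42 named genes that encode origin licensing factors, the replicative helicase and its activators, the replicative polymerases, the sliding clamp and its loader, replication protein A, the nuclease and ligase that finish Okazaki fragments, and the fork protection pair *Timeless* and *Tipin*. The symbols were matched to Ensembl gene identifiers, and all 42 were found among the 55450 genes of the count table and had enough reads to be tested. RNA was extracted from pieces of the tibialis anterior (TA), a muscle of the lower leg, of wild-type (WT) mice of the 129Pas background late in gestation (E18.5) and after birth at 2 weeks (wks) and 7 wks. The 12 libraries, 4 at each age, carried no treatment or targeted allele. The labels do not say whether a library is 1 animal. The study's figure legends count this sequencing in mice, with as many mice as libraries at each age. The tests measure the spread between libraries, which on that count is the spread between mice.

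Before S phase, the origin recognition complex, CDC6 and CDT1 load the MCM2-7 helicase onto DNA. CDC45, GINS and MCM10 then turn the helicase into a moving fork, polymerase alpha-primase lays primers, and polymerases epsilon and delta extend the strands behind it with the help of PCNA. Nuclei inside muscle fibres no longer replicate their DNA, and dividing cells in growing muscle are found among satellite cells, myoblasts, fibroblasts, endothelial cells and immune cells. Several subunits, replication protein A and PCNA among them, also serve DNA repair in cells that do not divide.

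In each interval most of the replication genes fell, though not all, and the size of the change differed widely within complexes. From E18.5 to 2 wks, 32 of the 42 genes fell, 3 rose and 7 did not pass the test, against 65.7% of all 19276 genes tested that were called in either direction, 34.2% lower and 31.5% higher. From 2 to 7 wks, 24 fell and 3 rose, against a background of 27.5% called, 13.9% lower and 13.5% higher. Over the whole span from E18.5 to 7 wks, 32 fell and 2 rose, against 71.4% called, 37.1% lower and 34.3% higher. A gene was called when its Benjamini-Hochberg adjusted p, from the quasi-likelihood test of edgeR over all genes tested, was under 0.05. Every adjusted p given for a gene comes from that test, unless an alternative run is named beside it. Such runs leave out a library, change the scaling or filter, remove a trend or use DESeq2, and the adjusted p is then from that run. The median log2 fold change of the 42 genes was -1.10 in the first interval (all genes -0.09), -0.64 from 2 to 7 wks (all genes -0.03) and -1.74 over the whole span (all genes -0.09). In bulk muscle, a smaller number of cells of a type and less RNA per cell cannot be told apart. Levels are in CPM, read counts relative to library size, scaled by the trimmed mean of M-values (TMM), which sets most genes as unchanged between ages.

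Against its own mean at E18.5, a gene of the set stood at a median of 46.8% at 2 wks and 29.9% at 7 wks. The range at 7 wks ran from 2.52% for *Mcm6* to 182% for *Rpa1*. The libraries of the ages compared did not overlap, with the later age lower, for 28 genes from E18.5 to 2 wks (32.4% of all genes), 25 from 2 to 7 wks (16.4%) and 29 from E18.5 to 7 wks (33.3%). They did not overlap, with the later age higher, for 2, 6 and 2 genes (28.9%, 17.3% and 30.2% of all genes). A group of 22 genes fell in both intervals, and it holds all 6 *Mcm2* to *Mcm7* genes, *Mcm10*, *Orc1*, *Orc6*, *Cdc6*, *Gins1*, *Gins2*, *Gins3*, *Pola1*, *Prim1*, *Prim2*, *Pole*, *Pole2*, *Pcna*, *Rfc3*, *Rfc5* and *Lig1*. Another 8 fell before 2 wks and did not pass the test afterwards (*Orc2*, *Orc4*, *Orc5*, *Cdc45*, *Pold3*, *Rfc4*, *Rpa3* and *Tipin*). *Cdt1* and *Fen1* were called only in the later interval, where they fell. Of all genes, 34.2% were called lower before 2 wks and 13.9% afterwards. The shares of all genes with each of these patterns over both intervals were not counted.

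**Figure D1:**
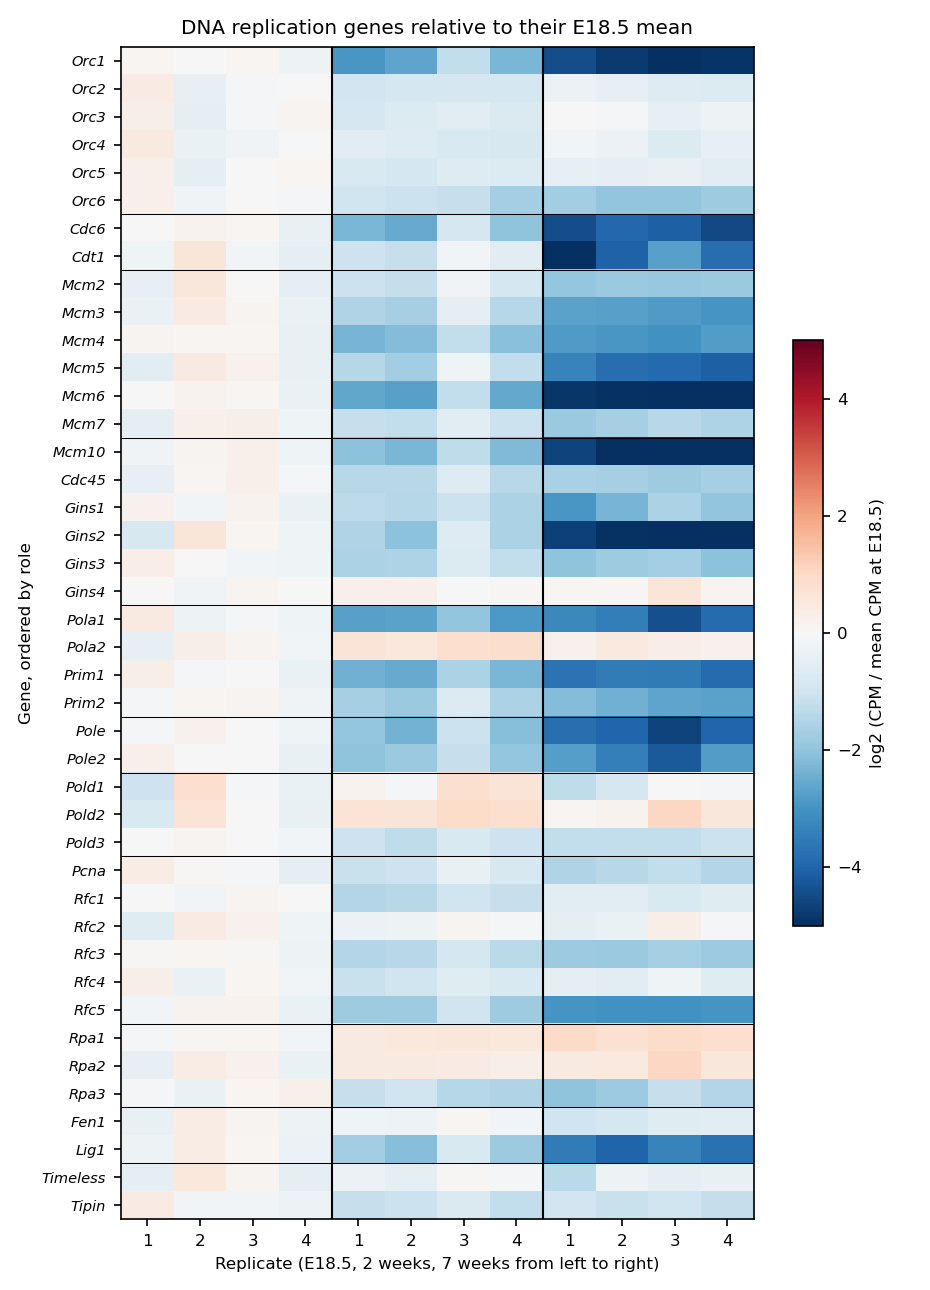
Each row is 1 of the 42 replication genes, ordered by role, and each column 1 of the 12 libraries. Colour gives log2 of CPM over the gene's mean CPM at E18.5, with the scale ending at -5 and 5. Blue deepens from E18.5 to 7 wks in most rows, *Mcm6*, *Mcm10*, *Gins2* and *Orc1* are the darkest at 7 wks, *Rpa1* is red at both later ages, and replicate 3 at 2 wks is paler than its neighbours.

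The library labelled 2 wks replicate 3 stood apart from the other 2-week libraries in these genes. It held the highest level of its age for 36 of the 42 genes, while it was the highest of its age for 24.6% of all genes tested. Its level over the mean of the other 2-week libraries had a median of 1.48 and ran from 0.854 to 2.65, and the same ratio had medians of 0.831, 0.813 and 0.906 in replicates 1, 2 and 4. *Mki67*, a marker of cycling cells, stood at 66.5 CPM in replicate 3 and at 30.3 to 39.1 CPM in the others. The summed level of 6 satellite cell and myoblast markers was 86.5 CPM in replicate 3, within the 74.8 to 156 CPM of its age. The summed muscle fibre, endothelial and adipocyte markers were the highest of the age in this library. Without it, the calls from 2 to 7 wks went from 27 to 19 (18 lower, 1 higher), those from E18.5 to 2 wks from 35 to 34, and those over the whole span stayed at 34. The shares of all genes called went from 27.5% to 22.4%, from 65.7% to 60.9% and from 71.4% to 69.9% in the same order. The count from 2 to 7 wks was also 19 without 7 wks replicate 1 (22.7% of all genes) and 19 without 7 wks replicate 2 (19.9%). In each of these the falls lost were those of *Mcm7*, *Gins1*, *Gins3*, *Pcna*, *Rfc3* and *Fen1*, and the rises lost those of *Orc3* and *Rpa1*.

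**Figure D2:**
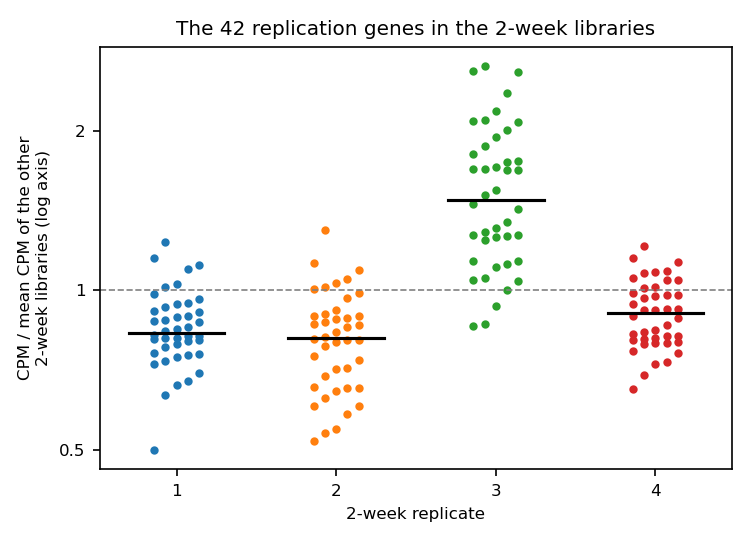
Each point is 1 of the 42 replication genes in a 2-week library, as its CPM over the mean CPM of the other 2-week libraries (log axis), and the black bar is the median of the library. The median of replicate 3 is 1.48, and those of the other libraries lie between 0.813 and 0.906.

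The 6 genes of the MCM2-7 ring, the helicase that unwinds DNA at the fork, fell in both intervals and by unequal amounts. Their summed level was 195 to 297 CPM at E18.5, 68.8 to 80.9 CPM at 2 wks apart from 148 CPM in replicate 3, and 34.8 to 36.3 CPM at 7 wks. The 7-week libraries thus lay close together, and no library of an age overlapped the next age. *Mcm6* read 64.4, 72.5, 70.0 and 51.5 CPM at E18.5, 10.7, 9.87, 27.2 and 11.02 CPM at 2 wks, and 2.23, 2.13, 1.30 and 0.857 CPM at 7 wks. Every later library was below every earlier library, and replicate 3 at 2 wks was the only 2-week library above 11.02 CPM. *Mcm6* fell by 2.14 ± 0.34 on the log2 scale (SE) to 2 wks (adjusted p = 0.000109) and by 3.18 ± 0.37 from 2 to 7 wks (adjusted p = 7.4e-05), a 39.8-fold lower level over the whole span.

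*Mcm5* read 19.9, 38.8, 32.8 and 22.1 CPM at E18.5, 10.5, 8.45, 24.4 and 12.1 CPM at 2 wks, and 2.77, 2.03, 1.93 and 1.68 CPM at 7 wks. Replicate 3 at 2 wks fell among the E18.5 libraries, and the 7-week libraries were apart from both other ages. *Mcm5* fell by 1.03 ± 0.31 before 2 wks (adjusted p = 0.00971) and by 2.72 ± 0.34 after (adjusted p = 0.000114). Its later fall exceeded the earlier by 1.69 ± 0.53 (adjusted p = 0.0225), a call that was lost without 2 wks replicate 3, where the difference was 0.85 (adjusted p = 0.155).

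*Mcm7* fell least over the whole span among the 6. It read 29.1, 48.1, 49.3 and 35.2 CPM at E18.5, 18.01, 17.2, 27.4 and 19.2 CPM at 2 wks, and 11.03, 12.8, 15.4 and 14.1 CPM at 7 wks. The ages did not overlap, but they lay close together after birth. *Mcm7* fell by 0.98 ± 0.20 (adjusted p = 0.000729) and by 0.62 ± 0.20 (adjusted p = 0.0351), and the later call was lost without 2 wks replicate 3 (log2 fold change -0.44, adjusted p = 0.122). The annotation places the microRNA genes *Mir25* and *Mir93* within *Mcm7* on the same strand. *Mcm2*, *Mcm3* and *Mcm4* stood at 27.2%, 14.4% and 13.5% of their E18.5 mean at 7 wks. The fall of *Mcm2* before 2 wks (adjusted p = 0.0142) was lost without E18.5 replicate 2 (adjusted p = 0.0574) and without 2 wks replicate 2 (adjusted p = 0.0509).

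**Figure D3:**
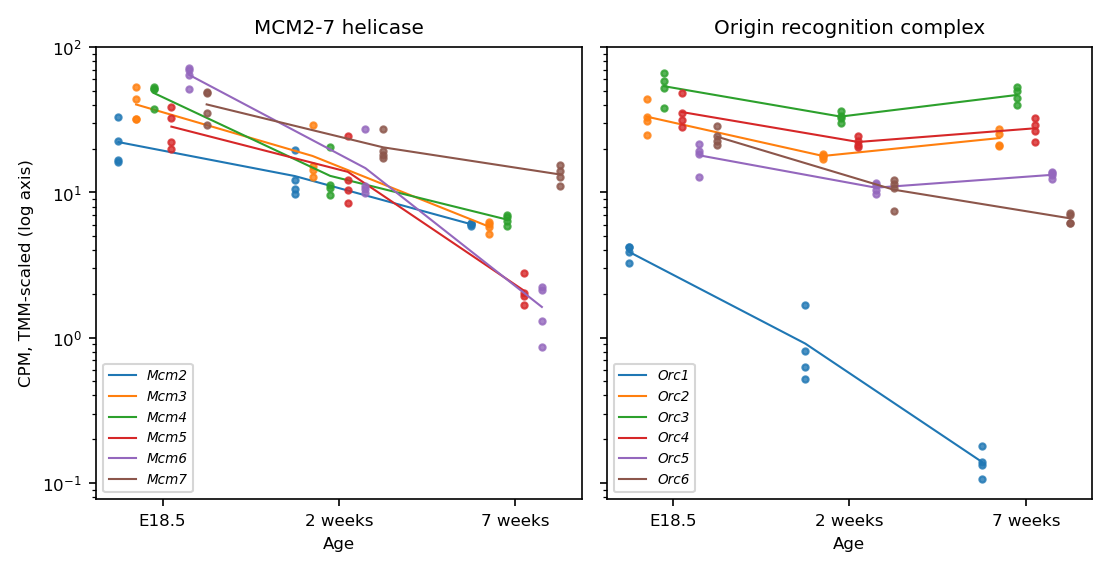
Points are the 4 libraries of each age for the MCM2-7 genes (left) and the *Orc1* to *Orc6* genes (right), in TMM-scaled CPM on a log axis, and lines join the means. All MCM genes go down at each age, *Mcm6* and *Mcm5* the furthest, while *Orc1* goes down from a mean of 3.90 CPM before birth to 0.140 CPM at the latest age and *Orc2* to *Orc5* end at 71.1% to 87.1% of their E18.5 mean.

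The origin recognition complex, which marks where replication can start, split into members that kept falling and members that did not. All 6 *Orc* genes fell before 2 wks, where 34.2% of all genes were called lower. *Orc1*, the subunit whose level is known to cycle with cell division, read 4.23, 3.88, 4.22 and 3.29 CPM at E18.5, 0.520, 0.629, 1.68 and 0.810 CPM at 2 wks, and 0.181, 0.140, 0.107 and 0.132 CPM at 7 wks. The ages did not overlap. It fell by 2.10 ± 0.32 (adjusted p = 7.71e-05) and then by 2.71 ± 0.38 (adjusted p = 0.000272), to 3.58% of its E18.5 mean.

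*Orc3*, a core subunit, went down and up again. It read 66.5, 38.0, 52.2 and 58.9 CPM at E18.5, 30.2, 33.6, 36.6 and 32.8 CPM at 2 wks, and 53.0, 49.9, 40.2 and 44.7 CPM at 7 wks. The 2-week libraries were below all others, and those of E18.5 and 7 wks overlapped. The fall of 0.69 ± 0.17 had an adjusted p of 0.00218 and the later rise of 0.49 ± 0.17 an adjusted p of 0.0392. The rise was lost under total count scaling (log2 fold change 0.15, adjusted p = 0.508), and without any of the 2-week libraries, E18.5 replicate 3 or 7 wks replicates 1, 2 or 4 (adjusted p from 0.0518 to 0.126). The difference between the intervals was called for *Orc2* (-1.31 ± 0.30, adjusted p = 0.00438), *Orc3* (-1.19 ± 0.29, adjusted p = 0.00695), *Orc5* (-1.03 ± 0.28, adjusted p = 0.0107) and *Orc4* (adjusted p = 0.0219). Over the whole span *Orc2* and *Orc5* were called lower (-0.49 ± 0.17, adjusted p = 0.0169, and -0.45 ± 0.16, adjusted p = 0.02), and *Orc4* at -0.37 ± 0.17 was not (adjusted p = 0.0703). The whole-span call of *Orc2* was lost without 7 wks replicate 4 (adjusted p = 0.0575), and that of *Orc5* without E18.5 replicate 4 (adjusted p = 0.0532) or 7 wks replicate 4 (adjusted p = 0.06) and with the GC trend removed (adjusted p = 0.277). *Orc4* lost its fall before 2 wks, and *Orc4* and *Orc5* their difference of intervals, once the trend of fold change with GC content was removed. *Orc6*, a peripheral subunit, followed the falling group, with 24.2 ± 3.27, 10.5 ± 2.07 and 6.64 ± 0.559 CPM at the 3 ages (SD, n = 4).

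The licensing factors that bring the helicase to origins were at low levels at 7 wks. *Cdc6*, the ATPase that joins the origin complex, read 11.7, 13.1, 12.4 and 9.03 CPM at E18.5, 2.38, 2.02, 6.41 and 2.86 CPM at 2 wks, and 0.542, 0.761, 0.689 and 0.511 CPM at 7 wks. No ages overlapped, and *Cdc6* fell by 4.20 ± 0.36 over the whole span (adjusted p = 2.41e-07). *Cdt1*, its partner in helicase loading, read 3.94, 6.90, 4.15 and 3.29 CPM at E18.5, 2.25, 2.06, 4.16 and 3.06 CPM at 2 wks, and 0.140, 0.279, 0.689 and 0.330 CPM at 7 wks. The earlier ages overlapped and the 7-week libraries lay below both. *Cdt1* had a log2 fold change of -0.67 ± 0.37 before 2 wks (adjusted p = 0.125) and fell by 2.98 ± 0.42 after (adjusted p = 0.000268). The intervals differed by 2.31 ± 0.64 (adjusted p = 0.0125), and this call was lost without 2 wks replicate 3 (1.86, adjusted p = 0.0556). *Cdt1* rests on few reads at 7 wks, where the lowest count of any replication gene in any library was 7.

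Of the helicase activators, 5 of 6 fell before 2 wks and 4 of 6 afterwards, against 34.2% and 13.9% of all genes called lower. *Gins2*, a subunit of the GINS ring, read 3.81, 10.03, 7.03 and 5.70 CPM at E18.5, 2.36, 1.62, 4.30 and 2.19 CPM at 2 wks, and 0.261, 0.217, 0.169 and 0.181 CPM at 7 wks. Replicate 3 at 2 wks overlapped the lowest E18.5 library, and the 7-week libraries were far below. It fell by 1.34 ± 0.33 (adjusted p = 0.00241) and then by 3.66 ± 0.39 (adjusted p = 3.61e-05), and the later fall was the larger by 2.32 ± 0.58 (adjusted p = 0.00721). *Mcm10*, which helps the helicase leave the origin, stood at 3.00% of its E18.5 mean at 7 wks, after it fell by 5.07 ± 0.30 (adjusted p = 1.1e-08).

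The subunits of GINS did not move as a unit. *Gins1* and *Gins3* stood at 23.1% and 27.4% of their E18.5 mean at 7 wks, while *Gins4* read 9.74 to 12.1 CPM at E18.5, 10.96 to 13.3 CPM at 2 wks and 11.6 to 16.9 CPM at 7 wks. The ages of *Gins4* overlapped and no comparison passed the test. Its log2 fold change over the whole span was 0.24 ± 0.15 (adjusted p = 0.168), and it was -1.04 under total count scaling and -0.44 with the length trend removed, both called lower. The calls of *Gins1* and *Gins3* from 2 to 7 wks were lost without 2 wks replicate 3 (adjusted p = 0.115 and 0.171). *Cdc45*, the third part of the active helicase, fell before 2 wks (10.7 ± 2.07 CPM to 4.78 ± 1.40 CPM, SD, n = 4) and read 3.32 ± 0.153 CPM at 7 wks, a difference of -0.52 ± 0.21 that did not pass (adjusted p = 0.0778).

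The genes of polymerase alpha-primase, the complex that starts each new strand, diverged. *Pola1*, its catalytic subunit on the X chromosome, read 40.2, 24.6, 28.6 and 25.4 CPM at E18.5, 4.48, 4.60, 7.67 and 4.05 CPM at 2 wks, and 3.21, 2.67, 1.42 and 2.06 CPM at 7 wks. No ages overlapped, and *Pola1* had the lowest share of its E18.5 mean at 2 wks of the 42 genes (17.5%). It fell by 2.51 ± 0.28 (adjusted p = 4.63e-06) and by 1.15 ± 0.27 (adjusted p = 0.00724). The primase subunits *Prim1* and *Prim2* stood at 8.08% and 18.1% of their E18.5 mean at 7 wks, and their ages did not overlap.

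*Pola2*, the accessory subunit, read 15.2, 24.8, 22.2 and 18.54 CPM at E18.5, 31.2, 29.2, 36.4 and 37.1 CPM at 2 wks, and 23.6, 28.7, 25.5 and 23.7 CPM at 7 wks. The 2-week libraries were the highest and overlapped with neither other age. *Pola2* rose by 0.73 ± 0.16 before 2 wks (adjusted p = 0.00121), but its change was -0.21 under total count scaling and -0.04 with the GC trend removed, neither past the test. The difference between *Pola1* and *Pola2* was not tested.

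Polymerase epsilon copies the leading strand, and its 2 genes in the set fell in both intervals. *Pole*, its catalytic subunit, read 21.1, 26.2, 22.9 and 19.3 CPM at E18.5, 5.80, 4.33, 10.6 and 5.05 CPM at 2 wks, and 1.65, 1.41, 0.904 and 1.42 CPM at 7 wks. No ages overlapped, and *Pole* fell by 4.06 ± 0.30 over the whole span (adjusted p = 6.11e-08). *Pole2* stood at 10.98% of its E18.5 mean at 7 wks.

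The genes of polymerase delta, the lagging strand polymerase, had mixed changes. *Pold1*, the catalytic subunit, read 3.26 to 11.7 CPM at E18.5, 6.32 to 11.6 CPM at 2 wks and 2.75 to 6.51 CPM at 7 wks, with all ages overlapping and no call in any comparison. *Pold2* read 6.24, 17.0, 10.5 and 8.13 CPM at E18.5, 16.8, 16.5, 19.5 and 18.4 CPM at 2 wks, and 11.4, 11.7, 21.3 and 15.5 CPM at 7 wks. E18.5 replicate 2 lay among the 2-week libraries. The rise of *Pold2* to 2 wks, 0.76 ± 0.28 (adjusted p = 0.0254), was lost without 2 wks replicate 3 (adjusted p = 0.0553) without E18.5 replicate 1 (adjusted p = 0.0685) and without E18.5 replicate 4 (adjusted p = 0.071), and it turned to -0.17 under total count scaling and -0.37 with the GC trend removed. *Pold3*, a subunit that binds PCNA, fell from 19.7 ± 1.51 to 9.72 ± 1.38 CPM (SD, n = 4) before 2 wks and read 8.59 ± 0.486 CPM at 7 wks, where the libraries overlapped those of 2 wks.

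**Figure D4:**
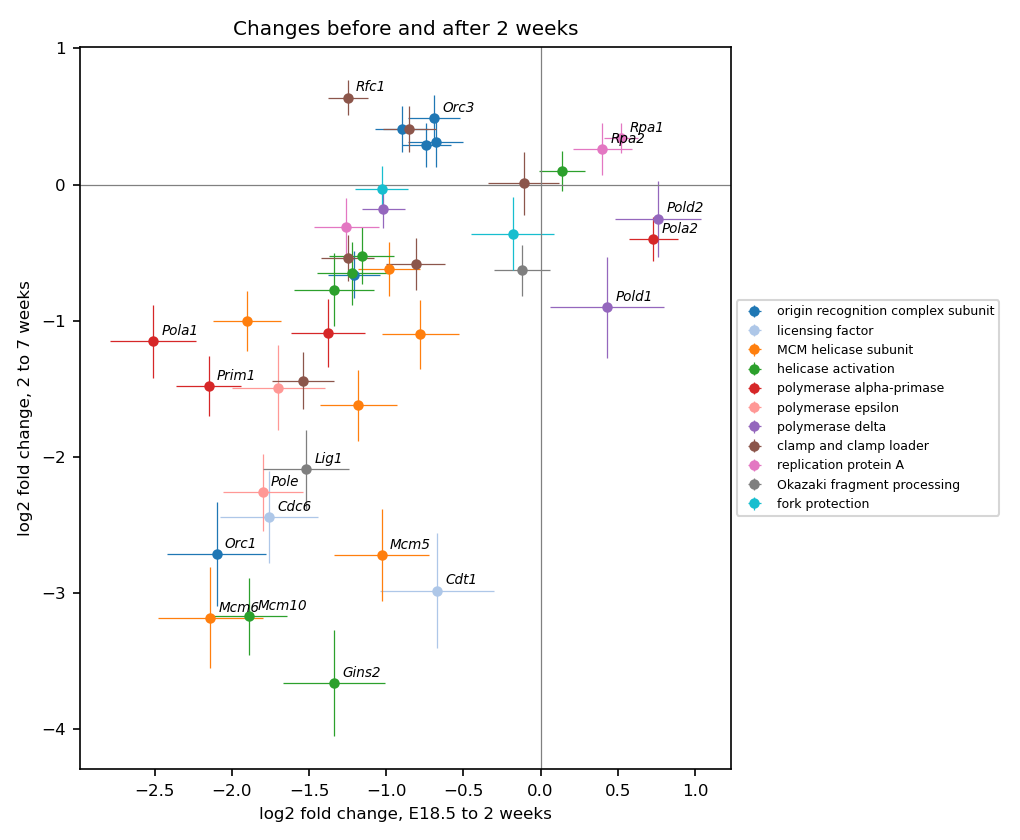
Each point is a replication gene, its earlier log2 fold change (E18.5 to 2 wks) on the x axis and its later (2 to 7 wks) on the y axis, coloured by role, with SE bars. Both axes use the 2-week libraries, so an error in them moves a point along both. *Gins2*, *Mcm6* and *Mcm10* are the lowest on the y axis, *Pola1* is furthest left, and *Rfc1* and *Orc3* lie left of 0 and above it.

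PCNA, the ring that holds polymerases on DNA, read 61.1, 50.1, 44.6 and 34.7 CPM at E18.5, 21.9, 23.1, 37.0 and 27.0 CPM at 2 wks, and 16.9, 18.46, 20.1 and 17.4 CPM at 7 wks. The earlier ages overlapped at replicate 3 of 2 wks, and 7 wks lay below both. *Pcna* fell by 0.81 ± 0.19 (adjusted p = 0.00228) and by 0.58 ± 0.19 (adjusted p = 0.0385), and the later call was lost without 2 wks replicate 3 (log2 fold change -0.40, adjusted p = 0.134). These values are uncertain, because the pseudogene *Pcna-ps2* matches *Pcna* at 99.2% over 781 bases and was itself given 213 to 3253 reads per library. *Pcna-ps2* read 15.4 ± 4.80 CPM at E18.5, 6.33 ± 1.39 CPM at 2 wks and 4.53 ± 0.434 CPM at 7 wks (SD, n = 4). In all, 7 replication genes have a processed pseudogene that matches over at least 200 bases at 90% or more. The pseudogenes other than *Pcna-ps2* were given at most 21 reads in a library, the most for that of *Mcm7* (97.7% over 2157 bases).

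The clamp loader, which opens PCNA and sets it on DNA, is made of *Rfc1* to *Rfc5*. *Rfc1*, its large subunit, read 64.9, 57.9, 70.9 and 63.4 CPM at E18.5, 23.2, 24.3, 32.1 and 28.6 CPM at 2 wks, and 44.6, 43.3, 38.4 and 42.4 CPM at 7 wks. No ages overlapped, and the 7-week libraries lay between the other ages. It fell by 1.25 ± 0.13 (adjusted p = 3.85e-06) and then rose by 0.64 ± 0.13 (adjusted p = 0.00346), though the rise was 0.30 and not called under total count scaling (adjusted p = 0.091). The difference of intervals was -1.89 ± 0.24 (adjusted p = 0.000102).

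The small subunits also differed from each other. *Rfc5* had mean levels of 13.5 ± 2.31, 4.63 ± 1.37 and 1.70 ± 0.0529 CPM at the 3 ages (SD, n = 4), and *Rfc3* from 12.9 ± 1.48 to 5.43 ± 1.06 and 3.73 ± 0.250. The later call of *Rfc3* was lost without 2 wks replicate 3 (adjusted p = 0.0985). *Rfc4* fell before 2 wks (log2 fold change -0.85 ± 0.17, adjusted p = 0.000636) and read 11.5 ± 1.41 CPM at 7 wks against 8.66 ± 1.41 CPM at 2 wks. *Rfc2* read 20.5 ± 6.22, 19.0 ± 2.63 and 19.1 ± 4.98 CPM, with no call in any comparison of ages.

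Replication protein A coats single-stranded DNA at forks and at sites of repair. *Rpa1*, its large subunit, read 53.5, 58.9, 60.0 and 49.9 CPM at E18.5, 76.5, 79.2, 83.0 and 80.6 CPM at 2 wks, and 106.7, 94.9, 104.2 and 99.6 CPM at 7 wks. No ages overlapped, each age being higher than the age before. *Rpa1* rose by 0.87 ± 0.11 over the whole span (adjusted p = 1.32e-05), whereas under total count scaling it fell by 0.41 (adjusted p = 0.00773). Its rise from 2 to 7 wks, 0.34 ± 0.11 (adjusted p = 0.0378), was lost without any single 2-week or 7-week library and was -0.00 under total count scaling.

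*Rpa2* read 12.4, 21.5, 19.5 and 13.1 CPM at E18.5, 22.4, 22.8, 21.9 and 20.6 CPM at 2 wks, and 22.9, 23.3, 34.0 and 24.6 CPM at 7 wks. All 7-week libraries were above all others. The rise over the whole span, 0.66 ± 0.19 (adjusted p = 0.0071), was 0.11 and not called with the length trend removed, and -0.63 and called lower under total count scaling. *Rpa3*, the small subunit, moved the other way, from 13.8 ± 2.44 to 5.76 ± 0.989 and 4.64 ± 1.21 CPM (SD, n = 4), with a fall of 1.57 ± 0.21 over the whole span (adjusted p = 1.67e-05).

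*Lig1*, the ligase that seals Okazaki fragments, read 25.2, 39.5, 32.1 and 24.5 CPM at E18.5, 8.97, 6.86, 17.7 and 8.61 CPM at 2 wks, and 2.71, 1.88, 3.03 and 2.31 CPM at 7 wks. No ages overlapped, and it fell by 3.61 ± 0.30 over the whole span (adjusted p = 2.06e-07). *Fen1*, the flap nuclease of the same step, read 9.49 ± 2.20, 8.72 ± 1.03 and 5.65 ± 0.786 CPM (SD, n = 4), and its fall from 2 to 7 wks, 0.63 ± 0.19 (adjusted p = 0.0238), was lost without 2 wks replicate 3 (adjusted p = 0.0718).

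Of the fork protection pair, *Tipin* fell before 2 wks, from 27.7 ± 6.31 to 13.6 ± 2.21 CPM (SD, n = 4), and read 13.3 ± 1.08 CPM at 7 wks. *Timeless* read 11.9 ± 4.16, 10.5 ± 1.84 and 8.16 ± 2.39 CPM and passed no test.

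The intervals differed for 14 of the 42 genes, 5 with the later change more negative and 9 with the earlier change more negative. The share of these calls, 33.3%, lies near the 38.4% of all genes (21.6% and 16.8% in these directions). The 5 were *Mcm5*, *Mcm10*, *Cdt1*, *Gins2* and *Pola2*, of which *Mcm5*, *Mcm10* and *Cdt1* lost the call without 2 wks replicate 3 (*Mcm10* adjusted p = 0.169), and the 9 were *Orc2*, *Orc3*, *Orc4*, *Orc5*, *Pola1*, *Pold3*, *Rfc1*, *Rfc4* and *Tipin*. Of the 9, 5 were called without 2 wks replicate 2 and 5 without 2 wks replicate 4, *Orc4*, *Pola1*, *Pold3* and *Tipin* being lost in both, and 6 without 2 wks replicate 1, where *Pola1*, *Pold3* and *Tipin* were lost. With the GC trend removed 9 genes were called (21.4%, against 34.2% of all genes) and with the length trend removed 22 (52.4%, against 40.9%).

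E2F transcription factors are known to switch on many replication genes as cells enter S phase, so the 250 bases before each RefSeq start were searched for E2F letters. The letters were TTTCCCGC, TTTCGCGC, TTTGCCGC and TTTGGCGC on either strand, and neighbouring matches may overlap. A RefSeq promoter in the GRCm38.p6 build was matched for 34 of the 42 genes, not for *Mcm4*, *Gins1*, *Gins2*, *Gins4*, *Prim2*, *Pole*, *Rfc2* and *Tipin*. The letters were found before 9 of the 34 genes (26.5%) and before 2.16% of 27025 genes with a promoter. The 9 were *Mcm5*, *Mcm6*, *Mcm7*, *Orc1*, *Orc3*, *Cdc6*, *Gins3*, *Pola1* and *Rfc3*. Their median log2 fold change over the whole span was -3.67 (range -5.31 to -0.20), and that of the 25 without the letters was -1.19 (range -5.07 to 0.87). The ranges overlapped widely, *Mcm10* having no match and a log2 fold change of -5.07, and *Orc3* having a match and a change of -0.20 ± 0.16 that did not pass the test (adjusted p = 0.29).

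The stretches below hold the matches before genes with some of the deepest falls, and before *Orc3* for contrast. The match is in capitals, and each is written 5′ to 3′ on the strand of its gene. *Mcm6* (chr1:128359719-128359841, minus strand) has an overlapping pair of matches 110 and 106 bases before the start and another at 47. *Mcm5* (chr8:75109330-75109393, plus strand) has an overlapping pair at 153 and 149. The others have a single match, *Orc1* (chr4:108579401-108579453, plus strand) at 27, *Cdc6* (chr11:98907987-98908046, plus strand) at 138, *Pola1* (chrX:93632260-93632319, minus strand) at 138 and *Orc3* (chr4:34614950-34615009, minus strand) at 41.
Mcm6: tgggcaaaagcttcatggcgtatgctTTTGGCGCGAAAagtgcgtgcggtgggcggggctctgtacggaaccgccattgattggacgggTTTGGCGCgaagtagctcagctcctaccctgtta
Mcm5: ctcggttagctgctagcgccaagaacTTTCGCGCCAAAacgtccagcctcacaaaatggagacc
Orc1: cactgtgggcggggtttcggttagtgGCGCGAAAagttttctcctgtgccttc
Cdc6: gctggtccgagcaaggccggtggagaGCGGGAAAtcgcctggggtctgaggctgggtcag
Pola1: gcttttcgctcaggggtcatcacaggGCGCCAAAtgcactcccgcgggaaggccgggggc
Orc3: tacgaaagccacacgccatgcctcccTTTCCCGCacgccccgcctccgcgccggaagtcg

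The same windows held CCAAT, the letters bound by NF-Y, before 21 of the 34 genes (61.8%, against 37.5% of all). They held TTTGAA, the core of the CHR element of mitotic genes, before 5 (14.7%, against 18.3%). Matches are letters only, and no binding was measured here.

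Other genes of the pathway were grouped in lists, to be read against the same shares of all genes called (34.2% lower and 31.5% higher before 2 wks, 13.9% and 13.5% afterwards). Of 30 other replication factors, 21 fell and 4 rose before 2 wks (median log2 fold change -1.28), and 16 fell and none rose from 2 to 7 wks (median -0.83). *Ticrr*, which is needed to load CDC45, read 11.7, 10.9, 12.2 and 9.57 CPM at E18.5 and 1.54, 1.23, 2.51 and 0.940 CPM at 2 wks, and was at most 0.109 CPM at 7 wks. *Wdhd1*, which links the helicase to polymerase alpha, and *Top2a*, a topoisomerase of dividing cells, fell by 2.75 ± 0.26 and 2.57 ± 0.44 before 2 wks. *Gmnn*, the inhibitor of CDT1, fell by 1.29 ± 0.24 before 2 wks (adjusted p = 0.000392) and had a change of 0.21 ± 0.24 afterwards (adjusted p = 0.554). At the other end, *Rnaseh2c*, *Pold4* and *Rnaseh2a* rose by 1.78 ± 0.32, 1.58 ± 0.30 and 0.76 ± 0.19 before 2 wks, though *Rnaseh2a* had a change of -0.18 under total count scaling. *Pold4* encodes a small polymerase delta subunit, and the *Rnaseh2* genes an enzyme that removes RNA from DNA.

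Of 18 genes that supply nucleotides, 9 fell and 2 rose before 2 wks (median -0.67), and 4 fell and 3 rose afterwards (median -0.15). *Rrm2*, the S-phase subunit of ribonucleotide reductase, read 46.9, 39.9, 45.6 and 34.9 CPM at E18.5, 12.5, 11.4, 19.5 and 11.95 CPM at 2 wks, and 3.01, 3.20, 2.47 and 2.09 CPM at 7 wks. Its ages did not overlap, and it fell by 1.60 ± 0.20 and 2.36 ± 0.21. *Rrm2b*, the subunit used outside S phase, read 10.7 to 19.0 CPM, 16.1 to 24.2 CPM and 29.2 to 58.2 CPM, and rose by 1.22 ± 0.24 from 2 to 7 wks (adjusted p = 0.00283). *Tyms*, which makes thymidylate, fell by 1.93 ± 0.24 and 2.28 ± 0.25, and *Dck*, a salvage kinase, by 1.40 ± 0.21 before 2 wks. *Dctpp1* and *Mthfd1* rose before 2 wks, by 1.78 ± 0.34 and 1.20 ± 0.16.

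Of 22 E2F and RB regulators tested, 16 fell and 3 rose before 2 wks (median -1.09), and 10 fell and 6 rose afterwards (median -0.05). *E2f1*, an activator, read 8.68, 19.8, 12.9 and 10.3 CPM at E18.5, 5.95, 4.62, 9.25 and 4.19 CPM at 2 wks, and 1.28, 0.885, 0.659 and 0.528 CPM at 7 wks. It fell by 1.11 ± 0.32 (adjusted p = 0.00816) and fell by 2.85 ± 0.36 (adjusted p = 0.000123). *E2f6*, a repressor of the family, read 53.7 to 68.4, 80.1 to 138 and 223 to 267 CPM, and rose by 0.91 ± 0.17 (adjusted p = 0.00038) and rose again later (adjusted p = 0.000458), though its first change was -0.04 under total count scaling. *E2f4* and *Lin52*, of the DREAM repressor complex, rose by 0.47 ± 0.20 and 0.43 ± 0.14 before 2 wks, and both fell under total count scaling (*E2f4* -0.47, *Lin52* -0.50). The call of *E2f4* was lost with DESeq2 (adjusted p = 0.0708) and that of *Lin52* with no filter (adjusted p = 0.0859). *Rb1*, the retinoblastoma repressor, fell by 1.52 ± 0.19 before 2 wks (adjusted p = 1.21e-05) and had a change of 0.39 ± 0.18 afterwards (adjusted p = 0.127). *Ccne1*, *Skp2* and *Ccne2*, which promote entry into S phase, fell by 3.29 ± 0.21, 2.70 ± 0.22 and 2.41 ± 0.23 before 2 wks.

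Mitosis genes had a lower median than the replication genes. Of 12, 11 fell before 2 wks (median -2.12) and 12 from 2 to 7 wks (median -3.71), with a median of -5.57 over the whole span against -1.74 for the replication genes. *Mki67* read 228, 153, 192 and 148 CPM at E18.5, 39.1, 30.3, 66.5 and 32.5 CPM at 2 wks, and 5.82, 3.84, 1.04 and 1.20 CPM at 7 wks. The checkpoint kinase gene *Bub1* and the cyclin genes *Ccnb1* and *Ccna2* fell by 6.92 ± 0.39, 6.59 ± 0.44 and 5.75 ± 0.47 over the whole span. *Plk1* alone of the 12 did not pass before 2 wks (-0.46 ± 0.24, adjusted p = 0.101). The difference between the lists was not tested.

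Among repair polymerases and ligases, and among genes that replicate mitochondrial DNA, the calls went both ways before 2 wks. Of 17 repair genes, 5 rose and 5 fell before 2 wks (median -0.10), close to the shares of all genes, and 5 rose and none fell afterwards (median 0.31). *Poll* and *Polb*, polymerases of end joining and base excision repair, rose by 2.18 ± 0.28 and 1.68 ± 0.19 before 2 wks. *Polq* and *Polk* fell by 1.79 ± 0.23 and 1.22 ± 0.25. Of 12 mitochondrial genes, 4 rose and 2 fell before 2 wks (median 0.22), and 3 rose and none fell afterwards (median 0.11), but under total count scaling 9 fell and 1 rose before 2 wks. *Polg*, the mitochondrial polymerase, and *Twnk*, its helicase, rose by 0.59 ± 0.15 and 0.41 ± 0.13 before 2 wks, and their changes were -0.35 and -0.52 under total count scaling. *Polrmt* rose by 2.34 ± 0.36, and *Primpol* fell by 1.67 ± 0.19.

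**Figure D5:**
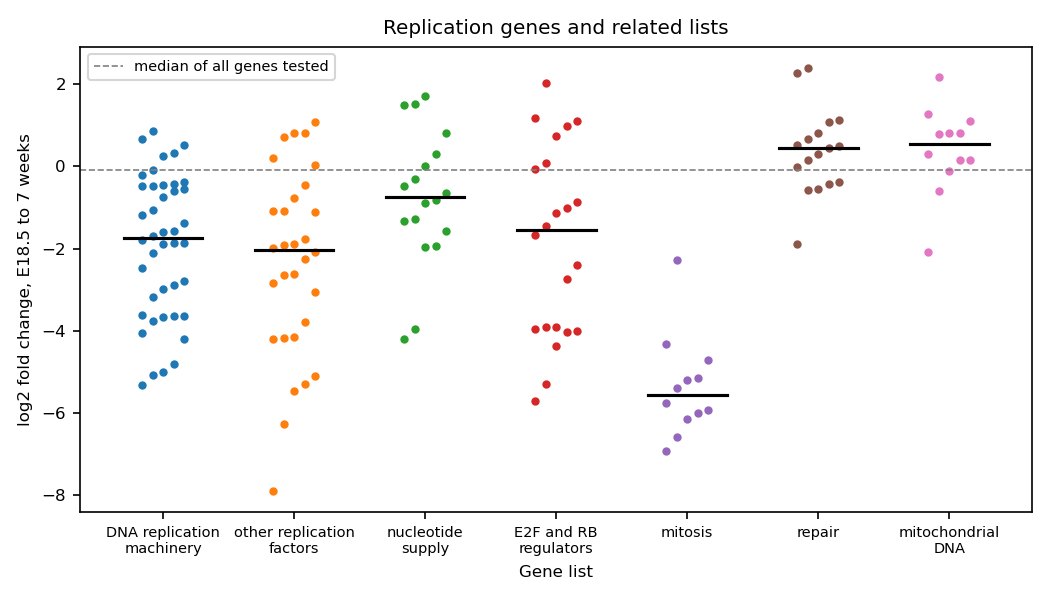
Each point is a gene's change on the log2 scale over the whole span in the replication machinery and 6 related lists, the black bars are list medians, and the dashed line is the median of all genes tested (-0.09). The replication machinery has a median of -1.74, the mitosis genes lie lowest with a median of -5.57, and the repair and mitochondrial lists have medians of 0.44 and 0.54.

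Markers of cell types moved with age beside these genes. Their calls are given over the whole span, where 37.1% of all genes were called lower and 34.3% higher. The summed level of 6 satellite cell and myoblast markers was 131 to 252, 74.8 to 156 and 26.8 to 41.4 CPM in order of age, with 5 of 6 markers lower over the whole span. That of 8 fibroblast markers was 6572 to 13380, 4802 to 6612 and 1092 to 4378 CPM, with 8 of 8 lower. Macrophage markers summed to 162 to 203, 77.2 to 110 and 21.2 to 69.6 CPM (5 of 6 lower), 6 red blood cell markers with over 3 counts at each age to 234 to 1003, 138 to 719 and 88.2 to 128 CPM (5 of 6 lower), and endothelial markers to 354 to 516, 842 to 1012 and 528 to 833 CPM (3 of 6 higher). Cartilage and bone markers summed to 27.2 to 147, 4.48 to 22.8 and 1.79 to 3.38 CPM (5 of 6 tested lower). Schwann cell markers summed to 99.8 to 141, 93.7 to 455 and 69.3 to 110 CPM (3 of 6 lower, 1 higher) and epidermal markers to 7.00 to 58.8, 10.5 to 13.5 and 10.6 to 22.5 CPM (2 of 7 lower), with *Krt5*, *Krt14*, *Krt1* and *Krt15* at 3 counts or fewer at 2 wks. Adipocyte markers summed to 177.5 to 2692, 420.7 to 485.5 and 310.6 to 414.4 CPM (5 of 6 lower), so the E18.5 range spans those of both later ages. Without both E18.5 libraries that held the most of them, the counts of replication genes called were 34, 23 and 32. These are for E18.5 to 2 wks, 2 to 7 wks and the whole span, beside 58%, 25.8% and 64.6% of all genes. Muscle fibre markers summed to 16230 to 27810, 131200 to 153000 and 130000 to 153200 CPM. Of these 8 markers, 6 were higher and 2 lower over the whole span, so the sum does not stand for each of them. The part of these cells in the changes of the replication genes was not tested.

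The libraries held 63018968 to 123449246 counted reads, and the 42 genes 7 to 14550 reads each. Reads of the 20 most abundant genes made up 13.8% to 16.1% of an E18.5 library, 33.2% to 35.6% of a 2-week library and 36.4% to 37.8% of a 7-week library. Under total count scaling the median of all genes moved to -1.02, -0.38 and -1.36 in the 3 comparisons, and that of the replication genes to -2.05, -0.98 and -3.02. The calls were then 39, 29 and 42 of 42, all lower, beside 61.8%, 28.0% and 69.0% of all genes called lower. An exon of 20 of the 42 genes overlaps another gene of the table, on the same strand for *Mcm7*, *Orc5* and *Pole2*, and since the strand setting of the counting is not given in the sources used here, reads of such pairs may be mixed.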

How the data were processed

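Polyadenylated RNA of 12 TA samples was sequenced from stranded TruSeq libraries as paired reads. The authors deposited raw read counts per Ensembl gene. Per the labels, reads were processed with bcl2fastq 2.17.1.14, cutadapt 1.10, STAR 2.5.3a and HTSeq 0.6.1p1 on mm10, whereas the study's methods name the later mouse build. The annotation and strand setting of the counting are not given in the sources used here.

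Counts were tested with edgeR 4.0.16 (R 4.3.3): filterByExpr, TMM scaling, and the quasi-likelihood test in a fit of all 12 libraries by age (biological coefficient of variation 0.279), with Benjamini-Hochberg adjustment over 19276 genes and a threshold of 0.05. SE was the log2 fold change over the square root of F. The difference of intervals is the change from E18.5 to 2 wks minus that from 2 to 7 wks. Scripts were tested on simulated data. Gene symbols, lengths and GC came from GENCODE vM39 (51477 of 55450 identifiers matched), and promoters from RefSeq. Totals of 63018968 to 123449246 reads limit precision for genes with few reads. Between ages, the deviations of same-numbered libraries from their age mean had correlations of -0.142 to 0.284. Those of differently numbered libraries had correlations of -0.289 to 0.236, and libraries were not paired. Replicates differed by more than sampling noise.

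The 42 genes and all lists were chosen with earlier results of these data known. All 42 may be named, and of each related list the 3 lowest and 3 highest fold changes before 2 wks, with *Mki67*, *Gmnn*, *Top2a*, *Rrm2*, *E2f1*, *Rb1*, *Polg* and *Twnk*. *Pole3* and *Pole4* were added later as subunits of polymerase epsilon, and their runs under the alternatives are not all given. Alternatives were total count scaling, TMM without the 20 most abundant and the mitochondrial genes, DESeq2 1.42.0, testing unfiltered genes or those with 10 or more counts throughout, a replicate block, fits of just the ages being compared, a test beyond a log2 fold change of 1, removal of GC or length trends, and leaving out each library. Leaving out both adipocyte-rich E18.5 libraries was added after seeing the data.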

Additional observations from a re-analysis of the deposited data

Results flagged for a closer look

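In each age, the gap from the highest or lowest of the 4 libraries to its neighbour was divided by the range of the 4. This was done for 249 sets of values (each named gene except *Pole3* and *Pole4*, at each age). About 1 in 20, or 12.45, would stand out by chance. Genes read in the same library are not independent, so the number that stood out cannot be weighed against it. The outermost library stood out in 25, and 16 of these were 2 wks replicate 3. In that library it was the highest level of *Mcm3* (29.2 CPM against 12.8 to 15.1 in the others), *Mcm4* (20.5 CPM), *Mcm6* (27.2 CPM), *Mcm10* (3.87 CPM), *Cdc45* (6.89 CPM against 4.08 to 4.09), *Pola1* (7.67 CPM), *Prim2* (5.56 CPM), *Pole2* (2.66 CPM) and *Rfc5* (6.68 CPM against 3.92 to 3.97). Among the related lists it was the level of *Rrm2* (19.5 CPM), *Tyms* (10.4 CPM against 4.94 to 5.41), *Ccna2* (23.6 CPM), *Ccnb1* (7.31 CPM), *Ccnb2* (8.73 CPM), *Cdc20* (9.73 CPM against 6.34 to 6.57) and *Bub1* (5.87 CPM). Why this library was higher was not tested.

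At E18.5, replicate 4 was the low library for *Mcm4* (37.4 CPM against 51.3 to 53.6) and *Rfc3* (10.7 CPM against 13.6 to 13.8). E18.5 replicate 1 was the high library for *Dck* (26.6 CPM), *Ccne2* (38.0 CPM) and *Ccna2* (114 CPM), and the low library for *Polg* (27.9 CPM against 40.5 to 42.5). At 7 wks, replicate 3 was high for *Gins4* (16.9 CPM against 11.6 to 12.3) and *Rpa2* (34.0 CPM against 22.9 to 24.6), and replicate 4 for *Pold3* (9.32 CPM against 8.30 to 8.41).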

How the results depend on the processing

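The 22 genes that fell in both intervals kept their direction in both under every alternative run. Under total count scaling the sign turned for *Gins4* (-0.78 to 2 wks, -0.26 from 2 to 7 wks, -1.04 over the span), *Pola2* (-0.21, and -0.95 over the span), *Pold1* (-0.52 to 2 wks), *Pold2* (-0.17, and -0.77 over the span), *Rpa1* (-0.41, -0.00, -0.41), *Rpa2* (-0.53, -0.10, -0.63), and from 2 to 7 wks *Orc4* (-0.04), *Orc5* (-0.05) and *Rfc2* (-0.34). It turned before 2 wks for *Rnaseh2a* (-0.18), *Rrm2b* (-0.43), *E2f4* (-0.47), *E2f6* (-0.04), *Lin52* (-0.50), *Ung* (-0.03), *Polg* (-0.35) and *Twnk* (-0.52). With the GC trend removed it turned for *Gins4* (-0.21 to 2 wks, -0.07 over the span), *Pola2* (-0.04, -0.27), *Pold1* (-0.86 to 2 wks), *Pold2* (-0.37 to 2 wks, 0.05 after, -0.32 over the span), *Orc3* (0.12 over the span), *Rfc2* (-0.01 after 2 wks), *E2f4* (-0.43), *Ung* (-0.12) and *Twnk* (-0.10). With the length trend removed it turned for *Gins4* (-0.63, and -0.44 over the span), *Pola2* (-0.03 over the span), *Pold2* (-0.07 over the span), *Rpa2* (-0.22 to 2 wks), *Tipin* (0.05 after 2 wks), *E2f4* (-0.08) and *Lin52* (-0.04). *Rfc2* from 2 to 7 wks was also -0.00 with no filter, -0.03 with at least 10 counts, -0.02 with the replicate block and -0.02 with only the libraries compared. Leaving out single libraries gave ranges across 0 for *Rfc2* (-0.27 to 0.06 before 2 wks, -0.18 to 0.11 after, -0.28 to 0.07 over the span), *Gins4* (-0.04 to 0.16 after 2 wks), *Fen1* (-0.23 to 0.02 before), *Timeless* (-0.32 to 0.05 before) and *Tipin* (-0.09 to 0.09 after).

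Beyond a log2 fold change of 1, the calls among the replication genes fell to 12 before 2 wks, 9 after and 25 over the span, all lower. The difference of intervals kept 2, 1 in each direction. Of all 19276 genes, 28.6%, 2.91%, 39.3% and 12.8% were called in either direction. Those called lower in the comparisons of ages were 2730, 448 and 4114 genes. In the 2 intervals the calls fell to 15 and 9 for other replication factors, 4 and 2 for nucleotide supply and 9 and 8 for E2F and RB regulators. They fell to 3 and 0 for repair and to 2 and 0 for mitochondrial genes, a stricter test by construction. The difference of intervals gave 9 calls with the GC trend removed (34.2% of all genes were called) and 22 with the length trend removed (40.9% of all genes). Total count scaling gave 1 call for repair after 2 wks and 10 for mitochondrial genes before. The counts of replication genes with a library left out were 34 to 36, 19 to 29, 31 to 38 and 10 to 17 in the 4 comparisons. Of all genes, 59.4% to 66.3%, 17.5% to 31.4%, 66.7% to 70.8% and 26.5% to 42.3% were then called. After 2 wks the counts were 4 to 9 for nucleotide supply and 3 to 6 for repair. The replicate block, although no source pairs the numbers, gave 36, 23, 35 and 14 calls, beside 64.7%, 26.7%, 70.6% and 37.8% of all genes. Replication genes below 1 CPM at 7 wks rest on few reads, as few as 7, and *Ticrr* had 0 in a library.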

Other observations

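Per kilobase of canonical transcript, the subunits of a complex were not level with each other. At E18.5 *Mcm6* had 21.8 CPM per kb and the other MCM2-7 genes 6.17 (*Mcm5*) to 13.6 (*Mcm7*). At 7 wks *Mcm7* had 4.50 CPM per kb, *Mcm6* 0.55 and *Mcm5* 0.46, so that *Mcm6* went from the highest of the 6 to the second lowest, while *Mcm5* was the lowest at both ages. In the origin complex *Orc3* led at all ages (23.4, 14.5 and 20.4 CPM per kb), and *Orc1* was lowest (1.16, 0.27 and 0.04). Within GINS, *Gins4* was the highest at each age (7.65, 8.46 and 9.06 CPM per kb), while *Gins2* went from 1.70 to 0.05.

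Over the 42 genes, the log2 fold change before 2 wks was higher for genes of higher GC content, with Spearman's rho of 0.42 and Pearson's r of 0.48, and the values were -0.09 and -0.11 once the trend over all genes was removed. From 2 to 7 wks they were -0.26 and -0.28. All genes were read in the same 12 libraries, so these are descriptions.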
